A study of Mus musculus with 24 samples.

Results

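The 34 genes described here make cholesterol and fatty acids or control their synthesis in animal cells. The rule that chose them is a list of gene names and uses no measured value, though the list was chosen with earlier results of these data known. They are 34 of the 56941 genes in the deposited values. Of them, 18 encode enzymes of the sterol pathway, 6 encode regulators of that pathway or a sterol carrier, and 10 encode enzymes that make, desaturate, or elongate fatty acids. RNA came from muscle of C2C12 cells, mouse myoblasts of an established line that form contracting myotubes. Every group, the unstimulated control included, had the genotype ChR2::tdTomato, which is a light-gated ion channel with a red fluorescent tag, so the samples are tissues of 1 engineered line. Sheets of this muscle received blue light every day for 60 min at 1, 4, or 10 Hz or were left unstimulated, with 6 libraries in each of the 4 groups and 24 in all. All groups were kept on grooved fibrin gels in differentiation medium with horse serum and IGF-1. Spontaneous twitching was seen in every condition, the controls included.

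Cholesterol is built from acetyl-CoA through mevalonate, squalene, and lanosterol, and side branches of the same route give isoprenoids such as coenzyme Q. Most genes of the route are targets of SREBP2 (Srebf2), a transcription factor held in the membrane of the endoplasmic reticulum. Its escort protein SCAP carries it to the Golgi for cleavage when membrane sterol is low, and the INSIG proteins hold SCAP back when sterol is high. SREBP1 (Srebf1) is processed in the same way and is best known for fatty acid synthesis. In muscle, these lipids go into the plasma membrane, the T-tubules, and the sarcoplasmic reticulum.

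Libraries held between 8052369 and 18159144 estimated counts, and 13315 genes, all 34 described here among them, passed the filter on low counts. Levels are given as CPM, the counts as a share of the library total, after scaling by the trimmed mean of M values (TMM), which sets libraries level over the bulk of their genes. TMM factors ran from 1.02 to 1.07 in the controls and from 1.001 to 1.05 at 10 Hz. At 1 Hz they ran from 0.904 to 1.05, and at 4 Hz from 0.869 to 0.999, below every control. A gene was called higher or lower when the Benjamini-Hochberg adjusted p of edgeR's quasi-likelihood test, taken over all 13315 genes, was under 0.05 and the log2(fold change) was over 0.5 in size. Errors of a log2(fold change) are standard errors, n is 6 libraries per group, and every adjusted p for a change in CPM is from that edgeR fit. On the first principal component of the 500 most variable genes, 1 Hz replicate 5 lay at -4.92, within the control range of -19.6 to -4.51. The other 1 Hz libraries lay between 7.76 and 16.3. Summed levels of 10 myotube genes ran from 11285 to 19011 TPM, a level per transcript length, over the 24 libraries, and none of the 10 was called at 1 Hz. At 4 Hz all 10 had a positive change, with a median log2(fold change) of 0.25. Of them, 3 passed the adjusted p, beside 27.5% of all genes marked higher by it. Of those 3, Mylpf was called higher, beside 12.8% of all genes. At 10 Hz all 10 had a negative change, with a median of -0.18, and none was called. The part of these genes in the changes at 4 and 10 Hz was not tested.

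On the TMM scale, 9 members were called higher at 1 Hz, 4 Hz, or both, and none of the 10 fatty acid enzymes was called. Hmgcs1, Fdft1, Msmo1, Insig1, and Stard4 were called at both frequencies. Idi1 was called at 1 Hz only, and Pmvk, Mvd, and Srebf1 at 4 Hz only. The calls depended on the scale. On log2(TPM + 1), limma called 3 members higher and 1 lower at 1 Hz, and 2 higher and 3 lower at 4 Hz, with Insig1 alone called higher at both. Insig1, the sterol sensor that holds SCAP in the endoplasmic reticulum, changed most, with log2(fold change) of 1.07 ± 0.12 at 1 Hz and 1.14 ± 0.12 at 4 Hz. Of the 34 genes, 6 were called higher at 1 Hz, or 17.6%, beside 7.19% of all genes tested. At 4 Hz, 8 were called higher, or 23.5%, beside 12.8% of all genes tested. The edgeR test called no member higher at 10 Hz, where 0.015% of all genes were called. DESeq2 gave the same counts of 6, 8, and 0. None was called lower at any frequency by edgeR or DESeq2, beside 7.74%, 12.3%, and 0.0225% of all genes at 1, 4, and 10 Hz. An unadjusted edgeR p under 0.05, in either direction, was found for 23 members at 1 Hz (67.6%, beside 46.9% of all genes), 23 at 4 Hz (beside 57.2%), and 2 at 10 Hz (5.88%, beside 8.07%). The 2 at 10 Hz were Stard4, with a positive change, and Dhcr7, with a negative one. These 3 comparisons share the same control libraries.

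Without the threshold on fold change, the adjusted p alone marked 18 members higher and 2 lower at 1 Hz, against 19.2% and 18.1% of all genes. At 4 Hz it marked 19 higher and 3 lower, against 27.5% and 23.9% of all genes, and at 10 Hz it marked none. Over the 34 genes, the median log2(fold change) at 1, 4, and 10 Hz was 0.24, 0.24, and 0.081, beside 0.041, 0.061, and 0.0067 over all genes tested. The 18 sterol enzymes had medians of 0.39, 0.38, and 0.064, and the 10 fatty acid enzymes had medians of 0.084, 0.052, and 0.077. In 10 of the 34 genes every 1 Hz library lay above every control library, as it did in 5.55% of all genes. At 4 Hz this held for 9 members and 12.9% of all genes, and at 10 Hz for 1 member, Srebf2, and 0.774%. At 1 Hz, Dhcr7 and Scap lay wholly below the controls, 2 members beside 8.58% of all genes. None of the 34 lay wholly below the controls at 4 or 10 Hz, beside 14.7% and 0.864% of all genes. Whole tissues were sequenced, so a change in the number of cells of a type and a change in RNA per cell cannot be told apart. Leaving out 1 Hz replicate 5 left 6 members called higher at 1 Hz.

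**Figure D1:**
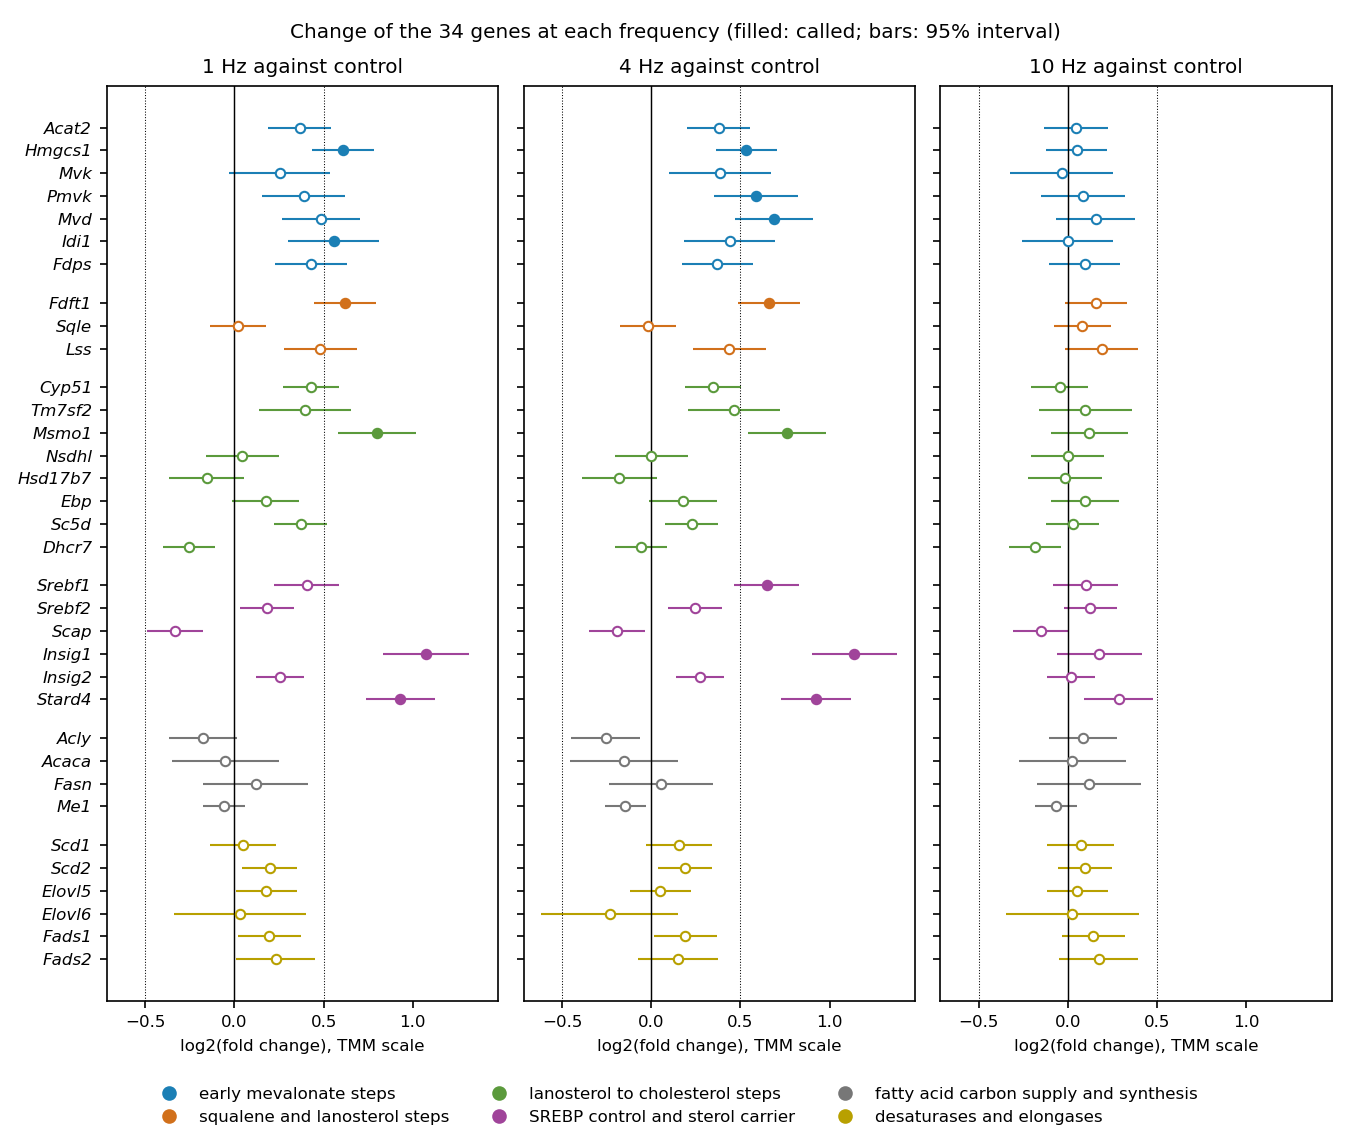
Log2(fold change) of each of the 34 genes against control at 1, 4, and 10 Hz on the TMM scale (points, with 95% intervals), coloured by role. Filled points are the called genes, of which the panels for 1, 4, and 10 Hz hold 6, 8, and 0, and dotted lines mark 0.5 in either direction.

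Hmgcs1, Idi1, Mvd, and Pmvk were called higher among the 7 early mevalonate enzymes, Hmgcs1 at both 1 and 4 Hz and the others at 1 of the frequencies. Hmgcs1, which makes HMG-CoA from acetyl units, ran from 152 to 204 CPM (median 168) in the controls, from 249.2 to 286 (median 263) at 1 Hz, from 229.8 to 314 (median 241) at 4 Hz, and from 159 to 214 (median 177) at 10 Hz. Every 1 and 4 Hz library lay above every control library, while 10 Hz and control overlapped. The log2(fold change) of Hmgcs1 was 0.61 ± 0.082 (adjusted p = 3.77e-06) at 1 Hz, 0.53 ± 0.082 (adjusted p = 9.8e-06) at 4 Hz, and 0.048 ± 0.082 (adjusted p = 0.956) at 10 Hz. The call at 4 Hz lies close to the threshold and was lost, with a log2(fold change) of 0.44, without 4 Hz replicate 5, the highest library. It was also lost without control replicate 3 or 4 (0.48 and 0.498). On log2(TPM + 1), Hmgcs1 was not called at either frequency, with 0.36 (adjusted p = 0.028) at 1 Hz and 0.18 (adjusted p = 0.25) at 4 Hz.

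Idi1, the isomerase that makes dimethylallyl diphosphate, ran from 60.9 to 87.8 CPM (median 71.0) in the controls, from 88.2 to 139 (median 101) at 1 Hz, from 74.1 to 131 (median 95.003) at 4 Hz, and from 64.7 to 80.0 (median 74.7) at 10 Hz. All 1 Hz libraries lay above all controls, the lowest by a narrow margin, and the 4 Hz libraries overlapped them at their low end. Idi1 changed by 0.56 ± 0.12 (adjusted p = 0.000929) at 1 Hz, 0.44 ± 0.12 (adjusted p = 0.00426) at 4 Hz, and -0.0011 ± 0.12 (adjusted p = 0.9997) at 10 Hz on the log2 scale, so it was called at 1 Hz and not at 4 Hz. Leaving out 1 Hz replicate 3 or 6 gave 0.498 and 0.44 and ended the call at 1 Hz, and leaving out 4 Hz replicate 2 gave 0.51 and a call at 4 Hz.

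Mvd, the decarboxylase that makes isopentenyl diphosphate, ran from 18.9 to 25.9 CPM (median 21.2) in the controls, from 27.8 to 32.9 (median 30.6) at 1 Hz, from 25.5 to 46.5 (median 34.9) at 4 Hz, and from 23.2 to 25.0 (median 23.962) at 10 Hz. The 1 Hz libraries were all above the controls in a narrow band, and the 4 Hz libraries spread widely, with the lowest just inside the control range. Its log2(fold change) was 0.48 ± 0.10 (adjusted p = 0.0008) at 1 Hz, 0.69 ± 0.10 (adjusted p = 8.01e-06) at 4 Hz, and 0.15 ± 0.11 (adjusted p = 0.789) at 10 Hz, a call at 4 Hz, and at 1 Hz without control replicate 6 (0.54). Pmvk, the kinase of phosphomevalonate, ran from 11.7 to 18.6 CPM (median 17.1) in the controls, from 17.9 to 23.6 (median 22.1) at 1 Hz, from 21.1 to 30.9 (median 24.3) at 4 Hz, and from 13.4 to 21.0 (median 17.6) at 10 Hz. It lay above all controls in the 4 Hz libraries and overlapped them at 1 Hz. Pmvk changed by 0.39 ± 0.11 (adjusted p = 0.00867) at 1 Hz, 0.59 ± 0.11 (adjusted p = 0.000137) at 4 Hz, and 0.083 ± 0.11 (adjusted p = 0.94) at 10 Hz, and its call at 4 Hz was lost without control replicate 3 or 4 Hz replicate 4 (0.49 and 0.48).

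The other 3 early enzymes were below the threshold on fold change. Acat2, which joins acetyl-CoA units and whose reads its neighbour paralog Acat3 may share, changed by 0.37 ± 0.085 (adjusted p = 0.00165) at 1 Hz and 0.38 ± 0.086 (adjusted p = 0.000758) at 4 Hz. Fdps, the farnesyl diphosphate synthase, changed by 0.43 ± 0.10 (adjusted p = 0.00114) and 0.37 ± 0.10 (adjusted p = 0.00246). Mvk, mevalonate kinase, passed the adjusted p at 4 Hz with 0.39 ± 0.14 (adjusted p = 0.021) and did not at 1 Hz with 0.25 ± 0.14 (adjusted p = 0.143). In all, the adjusted p marked 6 of the 7 early enzymes as higher at 1 Hz and all 7 at 4 Hz, with medians of 0.43 and 0.44. At 10 Hz their median was 0.048.

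Of the 3 enzymes between farnesyl diphosphate and lanosterol, Fdft1 was called higher, Lss passed the adjusted p alone, and Sqle did neither. Fdft1, the squalene synthase and the point where the sterol branch commits, ran from 85.6 to 123 CPM (median 102) in the controls, from 144 to 167 (median 162) at 1 Hz, from 136 to 190.3 (median 161) at 4 Hz, and from 107 to 128 (median 109) at 10 Hz. No 1 or 4 Hz library fell into the control range, and the 10 Hz libraries lay within it or just above. The log2(fold change) of Fdft1 was 0.62 ± 0.083 (adjusted p = 3.65e-06) at 1 Hz, 0.66 ± 0.084 (adjusted p = 6.88e-07) at 4 Hz, and 0.15 ± 0.083 (adjusted p = 0.668) at 10 Hz. Lss, which closes the ring to lanosterol, changed by 0.48 ± 0.10 (adjusted p = 0.000425) at 1 Hz and 0.44 ± 0.10 (adjusted p = 0.000679) at 4 Hz, below the threshold on fold change.

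Sqle, the squalene epoxidase and a rate-controlling enzyme of the pathway, ran from 161 to 188 CPM (median 179) in the controls, from 152 to 209 (median 179.7) at 1 Hz, from 149.6 to 190.0 (median 183) at 4 Hz, and from 166 to 205 (median 188) at 10 Hz. The 4 groups overlapped over most of their ranges. Its log2(fold change) was 0.021 ± 0.076 (adjusted p = 0.848) at 1 Hz and -0.018 ± 0.076 (adjusted p = 0.863) at 4 Hz. The 95% intervals ran from -0.14 to 0.18 and from -0.18 to 0.14, so they hold no change above 0.18 in log2 units and lie below those of Fdft1, whose lower ends were 0.45 and 0.49. On log2(TPM + 1) Sqle gave -0.19 (adjusted p = 0.332) and -0.35 (adjusted p = 0.0519). The difference between Sqle and Fdft1 was not itself tested.

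Msmo1 was the only called gene of the 8 that turn lanosterol into cholesterol, and it changed more than any other sterol enzyme at both 1 and 4 Hz on the TMM scale. It encodes the oxidase that starts removal of the C4 methyl groups, and its gene lies at chr8:65170603-65186830, minus strand, in GRCm39 (GENCODE M39). Msmo1 ran from 75.9 to 113 CPM (median 91.6) in the controls, from 133 to 193 (median 166) at 1 Hz, from 141 to 177 (median 158) at 4 Hz, and from 85.3 to 119 (median 96.9) at 10 Hz. All 12 stimulated libraries at 1 and 4 Hz lay above all controls. Its log2(fold change) was 0.80 ± 0.10 (adjusted p = 2.37e-06) at 1 Hz, 0.76 ± 0.10 (adjusted p = 2.04e-06) at 4 Hz, and 0.12 ± 0.10 (adjusted p = 0.872) at 10 Hz.

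The other 7 of these late enzymes split. Cyp51, the lanosterol demethylase, changed by 0.43 ± 0.075 (adjusted p = 9.87e-05) at 1 Hz and 0.35 ± 0.075 (adjusted p = 0.000518) at 4 Hz. Tm7sf2, a C14 sterol reductase, changed by 0.39 ± 0.12 (adjusted p = 0.0138) and 0.46 ± 0.12 (adjusted p = 0.00316), and Sc5d, a C5 desaturase, by 0.37 ± 0.071 (adjusted p = 0.000241) and 0.23 ± 0.071 (adjusted p = 0.0101), its 4 Hz value turning to -0.033 on log2(TPM + 1). These 3 genes passed the adjusted p at both frequencies. Nsdhl, Hsd17b7, and Ebp did not pass it at either, with values between -0.18 and 0.18, and Ebp at both frequencies and Nsdhl at 1 Hz had the opposite sign on log2(TPM + 1). Nsdhl and Hsd17b7 act with Msmo1 in the same C4 demethylation, and their values were 0.043 ± 0.10 and -0.16 ± 0.10 at 1 Hz and -0.00030 ± 0.10 and -0.18 ± 0.10 at 4 Hz. Dhcr7, which makes cholesterol from 7-dehydrocholesterol, was lower at 1 Hz by the adjusted p. It ran from 61.8 to 68.9 (median 66.4) CPM in the controls and from 46.7 to 61.1 (median 57.7) at 1 Hz, with no overlap, and changed by -0.25 ± 0.070 (adjusted p = 0.00589). At 4 Hz its value was -0.056 ± 0.070 (adjusted p = 0.515) and at 10 Hz -0.19 ± 0.070 (adjusted p = 0.452).

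Insig1 and Stard4 had the largest changes of all 34 genes, and both rose at 1 and 4 Hz. Insig1, at chr5:28276315-28283668, plus strand, in GRCm39, ran from 47.5 to 91.6 CPM (median 70.4) in the controls, from 129 to 174 (median 149) at 1 Hz, from 138 to 176 (median 154) at 4 Hz, and from 66.1 to 91.4 (median 79.3) at 10 Hz. Every library at 1 and 4 Hz lay above every control library, and the 10 Hz libraries lay within the control range. The log2(fold change) of Insig1 was 1.07 ± 0.12 (adjusted p = 1.53e-07) at 1 Hz, 1.14 ± 0.12 (adjusted p = 2.95e-08) at 4 Hz, and 0.17 ± 0.11 (adjusted p = 0.768) at 10 Hz. The 95% interval at 10 Hz ran from -0.065 to 0.41. Insig2, a related sensor known for weaker dependence on SREBP, ran from 126 to 137 CPM (median 131) in the controls, from 136 to 176 (median 159) at 1 Hz, from 146 to 171 (median 161) at 4 Hz, and from 122 to 141 (median 134) at 10 Hz. It lay above the controls in all 4 Hz libraries and overlapped them at 1 and 10 Hz. Insig2 changed by 0.26 ± 0.065 (adjusted p = 0.00342) at 1 Hz, 0.27 ± 0.065 (adjusted p = 0.00119) at 4 Hz, and 0.016 ± 0.065 (adjusted p = 0.989) at 10 Hz, and the sign turned on log2(TPM + 1) at 1 Hz, to -0.13 (adjusted p = 0.458), and at 10 Hz, to -0.018 (adjusted p = 0.9996).

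Stard4, a soluble protein that carries cholesterol between membranes, ran from 35.1 to 48.6 CPM (median 37.7) in the controls, from 62.8 to 92.3 (median 75.3) at 1 Hz, from 68.4 to 93.5 (median 72.9) at 4 Hz, and from 46.5 to 54.4 (median 47.4) at 10 Hz. The 1 and 4 Hz libraries lay well above all others. Its log2(fold change) was 0.93 ± 0.093 (adjusted p = 4.74e-08) at 1 Hz, 0.92 ± 0.094 (adjusted p = 2.95e-08) at 4 Hz, and 0.28 ± 0.094 (adjusted p = 0.361) at 10 Hz. At 10 Hz the unadjusted p was 0.0055 and did not pass adjustment over all genes, with 10 Hz libraries in the upper part of the control range or above it.

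Srebf1 ran from 23.013 to 26.1 CPM (median 25.7) in the controls, from 28.2 to 37.5 (median 33.8) at 1 Hz, from 34.4 to 46.7 (median 39.4) at 4 Hz, and from 23.020 to 30.8 (median 27.2) at 10 Hz. All 1 and 4 Hz libraries lay above the narrow control range, and the 10 Hz libraries lay within it or above. Srebf1 changed by 0.41 ± 0.087 (adjusted p = 0.000805) at 1 Hz, 0.65 ± 0.088 (adjusted p = 1.73e-06) at 4 Hz, and 0.10 ± 0.088 (adjusted p = 0.875) at 10 Hz, a call at 4 Hz. Srebf2 ran from 244 to 286 CPM (median 279.8) in the controls, from 259.9 to 355 (median 326) at 1 Hz, from 282 to 360.0 (median 332) at 4 Hz, and from 290.5 to 311 (median 301) at 10 Hz. Its 1 and 4 Hz libraries overlapped the controls, and its 10 Hz libraries all lay just above them. Srebf2 changed by 0.18 ± 0.072 (adjusted p = 0.046) at 1 Hz, 0.25 ± 0.072 (adjusted p = 0.00623) at 4 Hz, and 0.12 ± 0.072 (adjusted p = 0.701) at 10 Hz, and on log2(TPM + 1) its sign turned, to -0.024 (adjusted p = 0.917) at 1 Hz and -0.040 (adjusted p = 0.836) at 4 Hz.

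Scap, the escort of both SREBP proteins, was lower by the adjusted p at 1 and 4 Hz. It ran from 61.7 to 67.7 CPM (median 64.5) in the controls, from 43.9 to 59.0 (median 52.6) at 1 Hz, from 50.4 to 68.4 (median 55.4) at 4 Hz, and from 52.4 to 63.2 (median 58.7) at 10 Hz. Every 1 Hz library lay below every control library, and the 4 Hz libraries overlapped the controls. Its log2(fold change) was -0.33 ± 0.075 (adjusted p = 0.00113) at 1 Hz, -0.19 ± 0.075 (adjusted p = 0.0329) at 4 Hz, and -0.15 ± 0.075 (adjusted p = 0.622) at 10 Hz, below the threshold on fold change at each frequency.

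**Figure D2:**
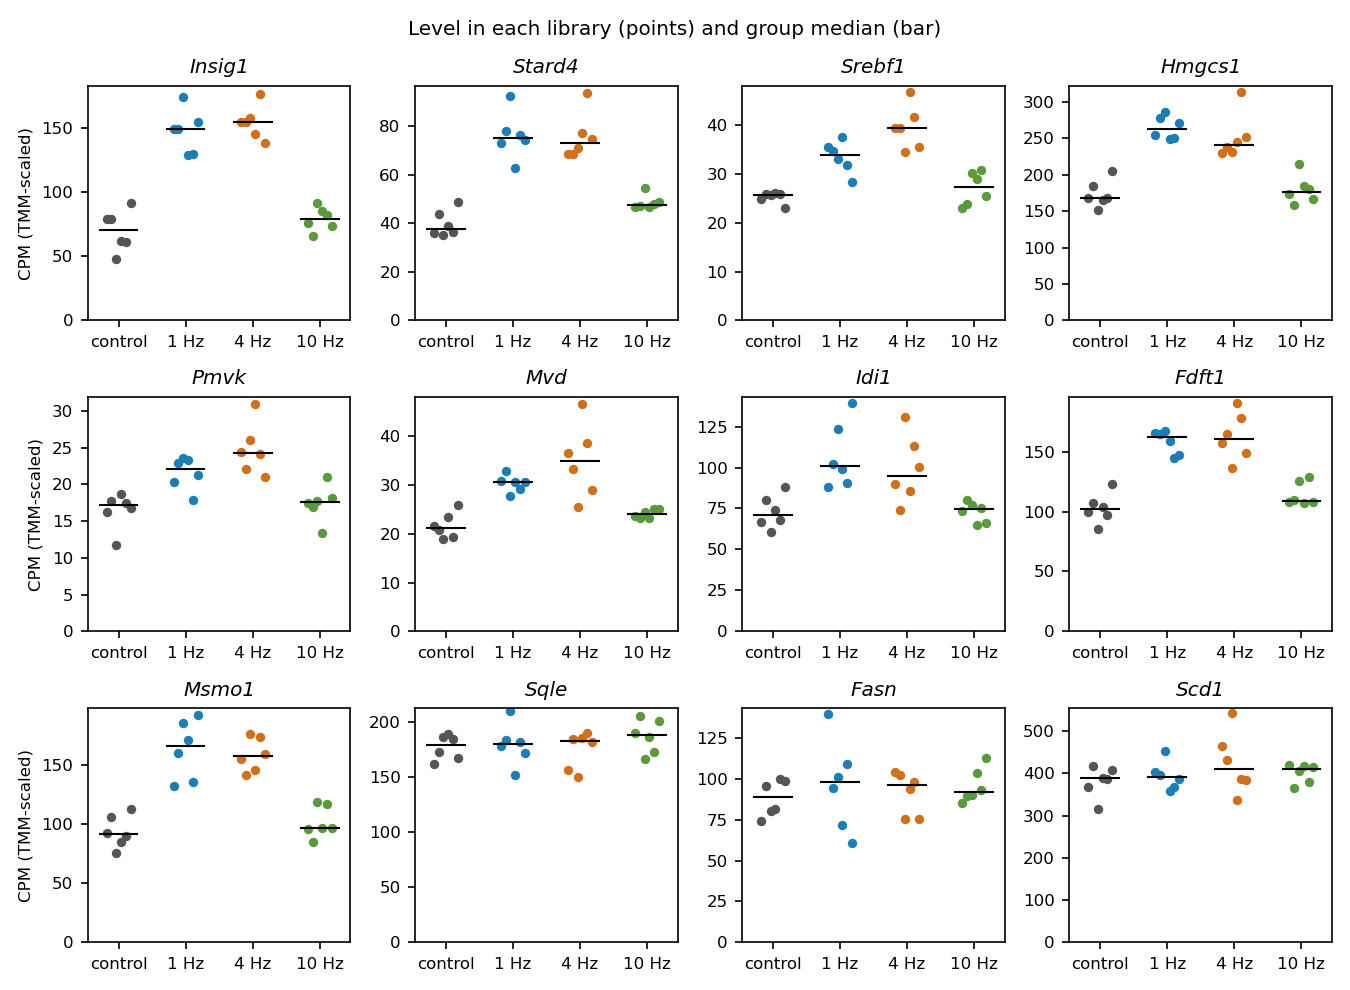
CPM (TMM-scaled, axes from 0) of 12 genes in each library (points) with the median of the 6 libraries (bar). The 9 called genes come first, with every 1 and 4 Hz library above the control median and 10 Hz medians below those at 1 and 4 Hz, and Sqle, Fasn, and Scd1, where the 4 groups overlap, come last.

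Since several of these genes rose together, the 250 bases before the start of 3 of them are shown. RefSeq promoter windows of 300 bases, from 250 before to 50 after the start in GRCm38.p6, were matched for 27 of the 34 genes with 36 windows. Fdps, Fdft1, Sqle, Stard4, Scd1, Scd2, and Fads1 were not matched. Hmgcs1 is shown because its window holds the sterol response motif searched for, and Insig1 and Msmo1, chosen after their values were seen, because they changed most among the matched genes. Capitals mark matches on either strand to 4 motifs: the sterol regulatory element TCACNCCAC, the E-box CACGTG, the NF-Y box CCAAT, and the Sp1 box GGGCGG.
Hmgcs1 (chr13:119690101-119690350, plus strand): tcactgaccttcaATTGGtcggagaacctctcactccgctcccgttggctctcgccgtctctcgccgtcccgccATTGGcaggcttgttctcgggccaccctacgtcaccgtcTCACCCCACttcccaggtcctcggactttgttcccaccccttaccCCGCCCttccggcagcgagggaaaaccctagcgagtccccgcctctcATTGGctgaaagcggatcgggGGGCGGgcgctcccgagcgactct
Insig1 (chr5:28071162-28071411, plus strand): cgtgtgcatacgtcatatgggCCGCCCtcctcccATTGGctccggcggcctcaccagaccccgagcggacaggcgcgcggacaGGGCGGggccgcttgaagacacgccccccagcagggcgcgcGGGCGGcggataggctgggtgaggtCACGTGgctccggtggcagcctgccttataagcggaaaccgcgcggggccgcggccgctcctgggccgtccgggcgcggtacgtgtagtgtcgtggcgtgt
Msmo1 (chr8:64733579-64733828, minus strand): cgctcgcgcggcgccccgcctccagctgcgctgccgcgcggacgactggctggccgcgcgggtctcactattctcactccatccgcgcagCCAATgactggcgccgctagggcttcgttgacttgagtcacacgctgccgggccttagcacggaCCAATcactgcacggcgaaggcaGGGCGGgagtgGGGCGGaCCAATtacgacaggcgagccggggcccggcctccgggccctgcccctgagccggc

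Hmgcs1 holds the sterol regulatory element as TCACCCCAC from 137 to 129 bases before the start, with 3 NF-Y boxes and 2 Sp1 boxes around it, and these matches do not overlap. Insig1 holds an E-box from 101 to 96 bases before the start, 1 NF-Y box, and 3 Sp1 boxes. Msmo1 holds 3 NF-Y boxes and 2 Sp1 boxes. Over the 36 windows, the strict letters of the sterol element were found in 1, or 2.78%, beside 1.24% of 32851 windows of all genes. The E-box was in 19.4% against 7.15%, the NF-Y box in 63.9% against 37.4%, and the Sp1 box in 72.2% against 35.7%. The windows of all genes were not limited to genes that passed the filter on low counts, as all members did. Among the sterol enzymes, 14 of 15 matched genes held an NF-Y box and 14 of 15 an Sp1 box, while 4 of 7 and 3 of 7 fatty acid enzymes did. These are matches of letters, and no binding was measured.

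None of the 10 enzymes of fatty acid synthesis, desaturation, and elongation was called by edgeR or DESeq2 at any frequency, although Acly was called lower at 4 Hz on log2(TPM + 1). An unadjusted p under 0.05 was found for 4 of the 10 at 1 Hz and 4 at 4 Hz, beside 46.9% and 57.2% of all genes, and for 0 at 10 Hz. Acly, which splits citrate into cytosolic acetyl-CoA for both pathways, ran from 77.8 to 91.9 (median 83.7) CPM in the controls and from 61.8 to 79.2 (median 70.2) at 4 Hz, with overlap at the edge, and changed by -0.26 ± 0.093 (adjusted p = 0.0231). At 1 Hz its value was -0.18 ± 0.092 (adjusted p = 0.131). Me1, the malic enzyme that supplies NADPH, changed by -0.15 ± 0.056 (adjusted p = 0.0311) at 4 Hz and showed -0.058 ± 0.056 (adjusted p = 0.433) at 1 Hz. Acaca, which makes malonyl-CoA, and Fasn, the synthase itself, did not pass at any frequency. Fasn ran from 74.0 to 99.9 (median 88.5) CPM in the controls and from 60.7 to 139 (median 97.8) at 1 Hz, where its libraries spread over more than the control range, and its 95% interval was -0.17 to 0.41.

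Scd2, a stearoyl-CoA desaturase, was the only desaturase or elongase of 6 to pass the adjusted p, and it stayed below the threshold on fold change. It changed by 0.20 ± 0.073 (adjusted p = 0.0368) at 1 Hz and 0.19 ± 0.073 (adjusted p = 0.0319) at 4 Hz, and both signs turned on log2(TPM + 1), to -0.021 and -0.14. Its neighbour Scd1, which is so alike in sequence that reads could be split between them, gave 0.048 ± 0.089 (adjusted p = 0.697) and 0.16 ± 0.089 (adjusted p = 0.146). The elongases Elovl5 and Elovl6 and the desaturases Fads1 and Fads2, which build polyunsaturated and long chains, did not pass at any frequency, with values from -0.23 to 0.23. Elovl6 was the lowest of the 34 genes per length, at 0.832 ± 0.209 TPM in the controls (SD). In the same libraries Fdps stood highest at 199 ± 20.7 TPM, followed by Scd2 at 149 ± 11.2, Srebf2 at 136 ± 6.56, Scd1 at 128 ± 11.8, and Insig2 at 123 ± 13.0 TPM, and Scd2, Srebf2, Scd1, and Insig2 had overlapping ranges.

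**Figure D3:**
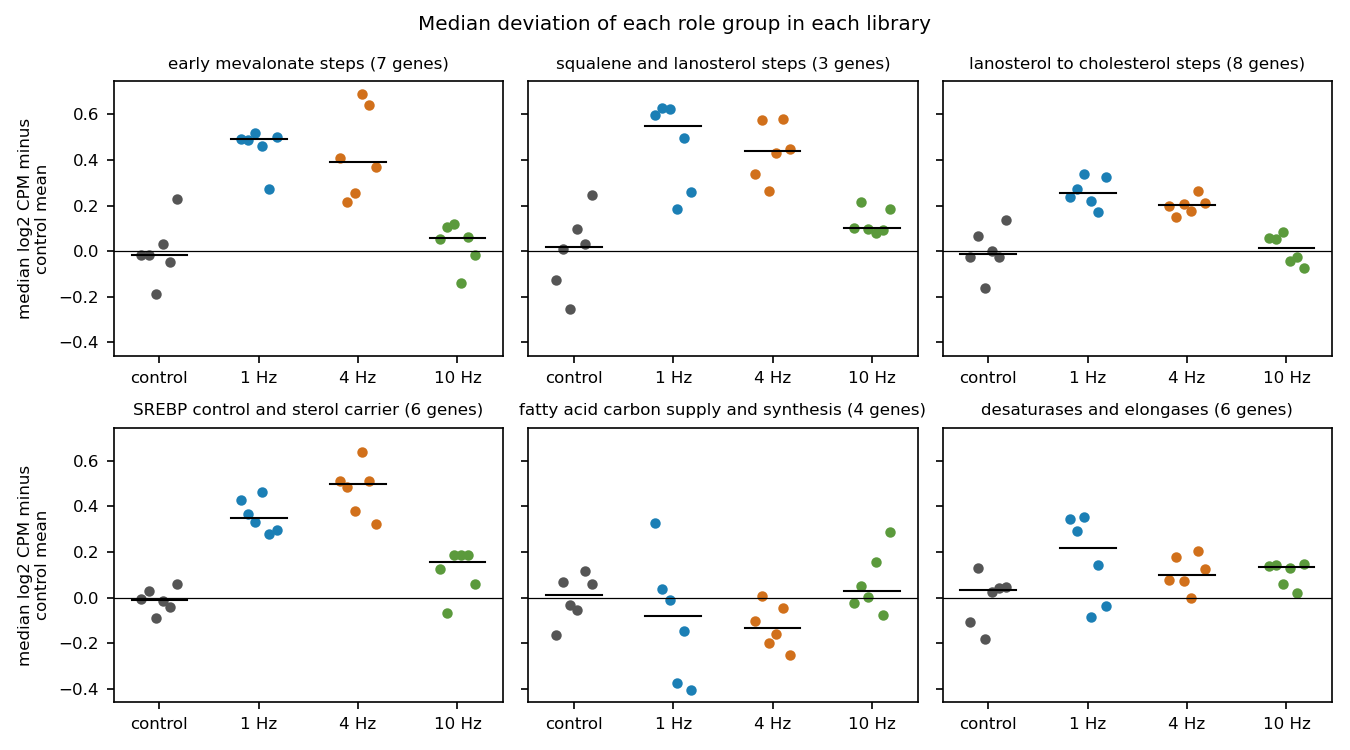
Median over the genes of each role of log2 CPM minus the control mean of each gene, in every library (points), with the median of 6 libraries (bar). The early mevalonate genes reach 0.49 at 1 Hz and 0.39 at 4 Hz, the genes for fatty acid carbon supply and synthesis lie at -0.080 and -0.13 on this TMM scale, and the 10 Hz medians lie between 0.014 and 0.16.

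The genes were also read role by role in each library. The median deviation of the early mevalonate genes from their control means ran from 0.27 to 0.52 in the 1 Hz libraries and from 0.22 to 0.69 at 4 Hz, with controls from -0.19 to 0.23. The SREBP control genes ran from 0.28 to 0.46 at 1 Hz and from 0.32 to 0.64 at 4 Hz, all above the controls at -0.088 to 0.062. The genes for fatty acid carbon supply and synthesis ran from -0.40 to 0.33 at 1 Hz, a wider spread than the controls at -0.16 to 0.12. At 1 Hz, replicate 5 had the lowest deviation for the early mevalonate and SREBP control genes, at 0.27 and 0.28, both above every control library.

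The 10 Hz libraries also differed from those at 1 and 4 Hz when compared directly. Against 1 Hz, 5 of the 34 genes were called lower at 10 Hz, beside 4.99% of all genes, and none higher, beside 5.85%. The adjusted p alone marked 15 lower and 1 higher, against 13.1% and 14.8%, and in 9 genes every 10 Hz library lay below every 1 Hz library, against 2.67%, and in none above, against 5.03%. The 5 were Hmgcs1, Idi1, Msmo1, Insig1, and Stard4, with log2(fold change) from -0.90 ± 0.11 (adjusted p = 3.78e-06) for Insig1 to -0.56 ± 0.12 (adjusted p = 0.00154) for Idi1. Against 4 Hz, 7 were called lower, beside 10.6% of all genes, and none higher, beside 10.6%. The adjusted p alone marked 17 lower and 1 higher, against 24.4% and 21.9%, and 10 genes lay wholly below the 4 Hz libraries, against 8.1%, and 1 wholly above, against 10.8%. The 7 were Pmvk, Mvd, Fdft1, Msmo1, Srebf1, Insig1, and Stard4, with values from -0.96 ± 0.12 (adjusted p = 5.86e-07) for Insig1 to -0.50 ± 0.11 (adjusted p = 0.000961) for Pmvk. That count fell to 3 without 4 Hz replicate 4 and to 4 without 4 Hz replicate 5 or 10 Hz replicate 1 or 2, several of these genes lying near the threshold. Acly moved oppositely, 0.34 ± 0.093 (adjusted p = 0.00453) at 10 Hz against 4 Hz, with all 10 Hz libraries above all 4 Hz libraries. Cell markers also moved in these comparisons. All 10 myotube markers had negative values at 10 Hz against 4 Hz, with a median of -0.43. Of these, 8 passed the adjusted p, and Mylpf, Tnnc2, and Mybpc1 were called lower. Against 1 Hz all 10 were negative as well, with a median of -0.25. There 2 passed the adjusted p, 6 had an unadjusted p under 0.05, beside 40.6% of all genes, and none was called. Of the 8 cycling cell markers, Mki67, Ccnb1, Plk1, and Cenpf were called higher against 4 Hz, and the median of the 8 was 0.61. Against 1 Hz the median of the 8 was 0.10, 1 was lower by the adjusted p, and none was called. The part of these markers in the members' drop was not tested. DESeq2 called 5 members lower in each of the comparisons with 1 and 4 Hz, which share the 10 Hz libraries.

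Between 4 and 1 Hz, edgeR and DESeq2 called no member, and edgeR called none of the 13315 genes. An unadjusted edgeR p under 0.05 was found for 2 members, or 5.88%, beside 11.0% of all genes. The largest difference was that of Elovl6, -0.26 ± 0.19 (adjusted p = 0.598), and Srebf1 gave 0.24 ± 0.087 (adjusted p = 0.379). For Insig1 the 95% interval of the difference ran from -0.17 to 0.30, and for Msmo1 from -0.25 to 0.18.

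The scale of the values changed the size of these differences. On log2(TPM + 1), tested with limma in 33 of the genes (Elovl6 fell under the filter of 1 TPM in 6 libraries), the median over all 13422 genes was -0.14 at 1 Hz and -0.21 at 4 Hz, where TMM put it near 0. On that scale 3 members were called higher and 1 lower at 1 Hz, and 2 higher and 3 lower at 4 Hz. Of all 13422 genes, 205 were called higher and 1707 lower at 1 Hz, and 336 higher and 3164 lower at 4 Hz. The sterol enzymes had medians of 0.17 and 0.038. Insig1 changed by 0.87 (adjusted p = 9.36e-05) and 0.82 (adjusted p = 4.64e-05), and Msmo1 by 0.62 (adjusted p = 0.000451) and 0.47 (adjusted p = 0.00177). Stard4 was called at 1 Hz with 0.50 (adjusted p = 0.0118) and not at 4 Hz with 0.49 (adjusted p = 0.00729), and Srebf1 was called at 4 Hz with 0.57 (adjusted p = 0.00436). Msmo1 was called at 1 Hz only. The other genes called on the TMM scale were not called here. Fdft1 gave 0.42 (adjusted p = 0.0145) and 0.34 (adjusted p = 0.0265), Idi1 0.34 (adjusted p = 0.0242) at 1 Hz, Mvd 0.33 (adjusted p = 0.0584) at 4 Hz, and Pmvk 0.26 (adjusted p = 0.0551) at 4 Hz, beside the values of Hmgcs1 above. The called lower genes were Scap at both frequencies, with -0.51 (adjusted p = 0.00765) and -0.50 (adjusted p = 0.00412), and at 4 Hz also Hsd17b7, with -0.57 (adjusted p = 0.00983), and Acly, with -0.58 (adjusted p = 0.00438). Relative to the median of all genes, the members' median was 0.21 at 1 Hz and 0.21 at 4 Hz on log2(TPM + 1) and 0.21 and 0.18 on the TMM scale. With TMM factors applied to the TPM values, 7 members were called higher at 1 Hz and 7 at 4 Hz, and none lower. Over all genes, 3.60% were called higher and 6.44% lower at 1 Hz, and 8.08% higher and 10.8% lower at 4 Hz.

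**Figure D4:**
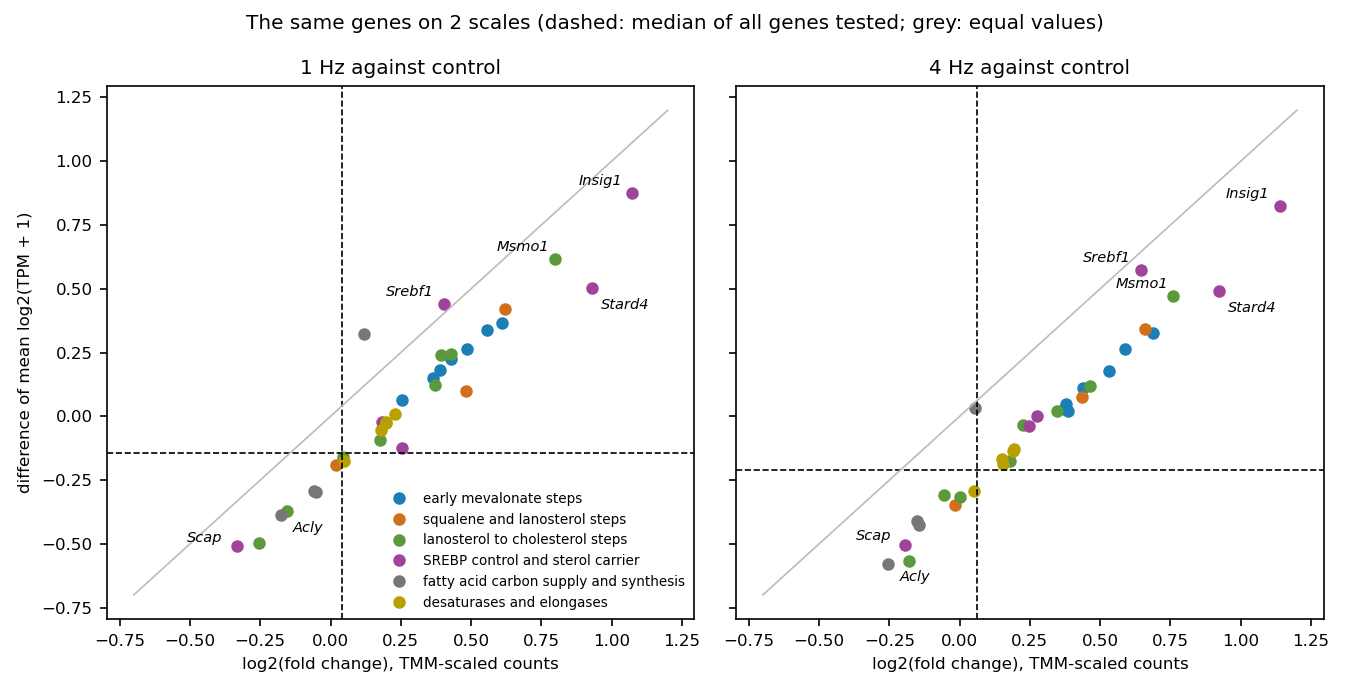
Difference of mean log2(TPM + 1) against log2(fold change) of TMM-scaled counts for 33 genes at 1 and 4 Hz, coloured by role. Dashed lines mark the median of all genes on each scale (-0.14 and -0.21 on the vertical axis), and genes lie mostly below the grey line of equal values, so that small positive changes on the TMM scale, such as those of Srebf2 and Scd2, turn negative on the other.

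Genes around the pathway were taken from lists made by role and tested on counts with edgeR and DESeq2, not on TPM. The values given are those of edgeR on the TMM scale. Of all genes tested, edgeR called 7.19% higher and 7.74% lower at 1 Hz, and 12.8% and 12.3% at 4 Hz. An unadjusted p under 0.05 was found for 46.9% of all genes at 1 Hz and 57.2% at 4 Hz. Among 8 genes for SREBP processing and sterol-regulated degradation, 0 were called at 1 Hz (4 at an unadjusted p under 0.05, and 1 lower by DESeq2) and 1 at 4 Hz. That gene was Spring1, needed for SREBP cleavage, with -0.54 ± 0.11 (adjusted p = 0.000258). Of 11 other isoprenoid and sterol enzymes, 10 were tested, and 1 was called lower at each of 1 and 4 Hz. It was Pdss1, which makes the side chain of coenzyme Q, with -0.64 ± 0.15 (adjusted p = 0.00159) and -0.77 ± 0.15 (adjusted p = 0.000203). Coq2, which attaches that chain, was called higher at 4 Hz, with 0.60 ± 0.13 (adjusted p = 0.000397). Of 6 LXR receptors and targets, which respond to oxysterols, 3 were tested and edgeR called 0, with 1 unadjusted p under 0.05 at each of 1 and 4 Hz and 1 DESeq2 call at 4 Hz. The LXR genes Nr1h3, Abca1, and Abcg1 were under the filter on low counts.

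Of 20 other genes for fatty acid synthesis, citrate export, and NADPH supply, 16 were tested. At 1 Hz 2 were called higher, or 12.5%, and 2 lower, beside 7.19% and 7.74% of all genes. At 4 Hz 2 were called higher, or 12.5%, and 4 lower, beside 12.8% and 12.3% of all genes. G6pdx, which starts the pentose phosphate route to NADPH, had the smallest p in that list. It ran from 33.2 to 46.9 CPM (median 39.5) in the controls, from 16.7 to 22.7 (median 19.6) at 1 Hz, and from 14.6 to 21.1 (median 16.6) at 4 Hz. The 1 and 4 Hz libraries were all below the controls. G6pdx changed by -0.9997 ± 0.11 (adjusted p = 3.32e-07) at 1 Hz and -1.21 ± 0.11 (adjusted p = 1.13e-08) at 4 Hz. Slc25a1, the mitochondrial citrate exporter that feeds Acly, went up by 0.50 ± 0.10 (adjusted p = 0.000375) at 1 Hz, and by 0.68 ± 0.10 (adjusted p = 6.08e-06) at 4 Hz. Mid1ip1, an activator of acetyl-CoA carboxylase, was higher at 4 Hz, by 0.54 ± 0.078 (adjusted p = 3.85e-06). Of 12 genes of triglyceride synthesis and lipid droplets, 10 were tested and 1 was called, Lpin1, a phosphatidate phosphatase, with 0.60 ± 0.10 (adjusted p = 3.63e-05) and 0.87 ± 0.10 (adjusted p = 1.19e-07). None of these 5 lists had a gene called at 10 Hz by edgeR, beside 0.015% higher and 0.0225% lower of all genes, or by DESeq2. There 3 genes in all had an unadjusted edgeR p under 0.05, beside 8.07% of all genes.

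Fat and liver cells also make these lipids, so their markers were read in the same libraries. Of 11 fat cell markers, Adipoq, Fabp4, Plin1, Cfd, Lep, Retn, and Cidec were under the filter on low counts, none of these 7 exceeded 1.04 TPM in any library, and Retn was listed at 0 in all 24. Their list summed to 35.0 to 42.9 TPM in the controls, 28.5 to 44.8 at 1 Hz, 22.8 to 40.0 at 4 Hz, and 33.3 to 44.2 at 10 Hz. Pparg and Lipe were called higher at 1 and 4 Hz, by 0.56 and 0.64 at 1 Hz, and Cebpa was called lower at 4 Hz, by -0.52. These genes are also active outside fat cells, and their part in the results was not tested. The 6 liver cell markers, Alb, Ttr, and Apoa1 among them, summed to at most 0.481 TPM in any library, with Ttr listed at 0 in all 24. Fibroblast markers were called lower for 1 of 7 genes tested, Col1a1, at 1 and 4 Hz, beside 7.74% and 12.3% of all genes. Their list sums were 493 to 789 TPM in the controls, 376 to 762 at 1 Hz, 435 to 692 at 4 Hz, and 608 to 756 at 10 Hz. By the adjusted p alone, 2 of the 7 were higher and 1 lower at each of 1 and 4 Hz. Of all genes, 19.2% were higher and 18.1% lower by it at 1 Hz, and 27.5% and 23.9% at 4 Hz. The median log2(fold change) of the 7 was 0.011 at 1 Hz and 0.043 at 4 Hz. The 8 cycling cell markers summed to between 18.1 and 43.7 TPM over all libraries, with Cdk1 called higher at 1 and 4 Hz and Mki67, Ccnb1, and Plk1 lower at 4 Hz. Of 6 macrophage markers, 2 were tested and none called (0 at 1 Hz, 1 at 4 Hz, and 0 at 10 Hz with an unadjusted p under 0.05 by edgeR, 0 by DESeq2). The part of fibroblast and cycling cells in the results was not tested.

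Whether reads were assigned by strand is not given in the sources used here. In GENCODE M39, 25 of the 34 genes share bases with a gene annotated on the other strand and 11 with a gene on their own strand, so reads of those neighbours could enter their counts. Msmo1, Hsd17b7, Sc5d, Dhcr7, Mvk, and Fasn overlap no annotated gene.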

How the data were processed

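RNA was measured in 24 libraries, 6 for each of control, 1, 4, and 10 Hz, from directional poly(A) libraries. Per the labels, low-input samples were ribodepleted instead, without saying which. The authors deposited Salmon estimated counts per gene and TPM values, made with the nf-core/rnaseq pipeline on GRCm39 and an Ensembl annotation. How strand was used is not given in the sources used here. The estimated counts were rounded (6.15% were not whole within 0.001), filtered with filterByExpr (minimum count 10, minimum total 15), scaled by TMM, and tested with edgeR 4.0.16 (robust quasi-likelihood, 1 fit over 24 libraries) in R 4.3.3. DESeq2 1.42.0 and limma 3.58.1 on log2(TPM + 1) or log2(TPM + 0.1), for genes with at least 1 TPM in 6 libraries, were alternatives, with other factors, filters, a replicate block, and each library left out. The tests were checked on simulated data with as many genes raised as lowered, a setting that does not cover the dependence on scale given above.

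Full values are given for the 9 called genes and for Srebf1, Srebf2, Scap, Insig1, and Insig2, and other members by range, count, or fold change. Sqle, Dhcr7, Acly, and Fasn were given levels after their values were seen. From each other list, the gene of smallest p called in each direction was named, and the others named were chosen after their values were seen. The 34 genes, the lists, and the tests were chosen with earlier results of these data known. The study's methods describe the 6 libraries of a group as biological replicates. Depth per library was 8052369 to 18159144 estimated counts. The 30-min experiment was not analysed here.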

Additional observations from a re-analysis of the deposited data

Results flagged for a closer look

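In 10 of the 136 groups of 6 libraries (34 genes in 4 groups), the highest or lowest library stood apart by Dixon's criterion, where chance gives about 1 in 20. The library 4 Hz replicate 5 stood above its group in Hmgcs1 at 313.5 CPM (next 252), in Stard4 at 93.5 CPM (next 77.1), and in Me1 at 165.7 CPM (next 149). Control replicate 3 stood below the other controls in Pmvk at 11.7 CPM (next 16.2) and in Srebf2 at 244 CPM (next 277). Fdps was low in 1 Hz replicate 5, at 163 CPM (next 189). Lss was high in 10 Hz replicate 6, at 38.1 CPM (next 32.7), and Stard4 in 10 Hz replicate 3, at 54.4 CPM (next 48.6). Elovl6, a gene of low level, was high in control replicate 2 at 4.32 CPM (next 3.1102) and in 4 Hz replicate 6 at 3.34 CPM (next 2.60).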

How the results depend on the processing

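DESeq2, other scaling factors, looser and stricter filters, a fit of only the groups compared, and leaving out the 4 libraries with a TMM factor under 0.95 (chosen after seeing the data) moved no count or median beyond 1.5 times or the spread between libraries. Single calls near the threshold were lost, Idi1 at 1 Hz (0.47) and Pmvk at 4 Hz (0.45) without those 4 libraries and Hmgcs1 at 4 Hz (0.49) with no filter, and upper-quartile factors added Mvd at 1 Hz (0.50). On log2(TPM + 1), members called higher and lower were 3 and 1 at 1 Hz and 2 and 3 at 4 Hz, with medians of 0.062 and 0.0031, and 0.050 at 10 Hz. At 10 Hz, 1 member was lower than at 1 Hz, and 2 were higher and 1 lower than at 4 Hz. Of all 13422 genes at 10 Hz, 1212 were higher and 133 lower than at 1 Hz, and 2803 higher and 297 lower than at 4 Hz. With 0.1 added instead of 1, the values for the members were 3 and 2 at 1 Hz, 3 and 3 at 4 Hz, medians of 0.066, 0.0031, and 0.051, and 1, 2, and 1 for 10 Hz against 1 and 4 Hz. Both reversed Srebf2 (-0.024 at 1 Hz and -0.040 at 4 Hz) and Insig2 (-0.13 at 1 Hz and -0.018 at 10 Hz). TMM-scaled TPM, added after seeing the data, gave a 10 Hz median of 0.059, 4 members lower at 10 than at 4 Hz, Idi1 at 0.0033, and Insig2 at -0.0082 at 10 Hz. On that scale, 6.88% of all genes were called lower at 10 than at 4 Hz. The cause of these shifts was not tested.

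Adjusted p alone gave 18 higher and 2 lower at 1 Hz, 19 and 3 at 4 Hz, 1 and 15 for 10 against 1 Hz, and 1 and 17 for 10 against 4 Hz. Leaving out each library moved the 10 Hz median from 0.043 to 0.094, members lower at 10 than at 4 Hz from 3 to 9, and the 10 Hz values of Hmgcs1 from -0.0088 to 0.0995, Idi1 from -0.045 to 0.058, and Insig2 from -0.0040 to 0.041.

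Replicate numbers did not pair the libraries. Over 36 same-numbered pairs the correlation of deviations ran from -0.33 to 0.24 (3 over 0.1), and 0 libraries correlated best with their own number. With a replicate block, 6, 8, and 0 members were called higher at 1, 4, and 10 Hz, no call against control changed, and the value of Idi1, 10 Hz against control, was 0.00078.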

Other observations

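Among the 6 controls, replicate 6 had the highest CPM for 17 of the 34 genes, among them 13 of the 18 sterol enzymes, and replicate 3 had the lowest for 21, among them 14 sterol enzymes. These libraries also stood at the ends of the controls on the first principal component, at -4.51 and -19.6, although none of the 34 genes is among the 500 that define it. At 1 Hz, replicate 5, which lay at -4.92 on that component, was lowest for 6 of the 34 genes, and replicate 4, at 16.3, was lowest for 16. These are values of single libraries and were not tested.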
